A study of Mus musculus with 11 samples.

Results

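The genes described here are those of V(D)J recombination and of the end joining that completes it. They are Rag1, Rag2, Dntt, Lig4, Polm, Dclre1c, Xrcc4, Xrcc5, Xrcc6 and Prkdc, chosen by symbol, and all 10 were found among the 24319 gene symbols of the tables. RNA was sequenced from B-lineage cells of C57BL/6J mice in 3 groups. B-ALL denotes leukemic lymph node cells of Ebf1+/- Pax5+/- mice 686, 713 and 760, which had B cell acute lymphoblastic leukemia and gave 2 libraries each. The pre-leukemic cells (dHet proB) carried Ebf1+/- Pax5+/- and in addition Rag2-/-, were c-Kit+ fetal liver cells, and were cultured briefly on OP9 stromal cells with IL-7, Flt3L and SCF (3 libraries). The normal cells (wt proB) were the sorted FrBC fraction of bone marrow with Ebf1, Pax5 and Rag2 intact (2 libraries). B-ALL and dHet proB thus share the loss of 1 allele each of Ebf1 and Pax5, and differ in Rag2 genotype, tissue, culture and leukemia together, which cannot be told apart. Ages are not given. Nothing in the labels tells whether libraries of dHet proB, or of wt proB, stem from different animals or cultures. The limma p-values of group comparisons described below rest on 1 spread pooled over the B-ALL mice and the single proB libraries. Differences among the leukemias therefore also bear on the p-values of dHet proB against wt proB. The part of the spread that comes from the proB libraries may be technical. The source name of dHet proB library 3 carries the replicate number of library 2.

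V(D)J recombination assembles the variable exons of antigen receptor genes from separate gene segments, and in proB cells it acts on the immunoglobulin heavy chain locus. The recombinase, a complex of RAG1 and RAG2, cuts DNA at signal sequences beside the segments. The Ku heterodimer (products of Xrcc5 and Xrcc6) and the kinase DNA-PKcs (Prkdc) then bind the ends, the nuclease Artemis (Dclre1c) opens the hairpins, the polymerases TdT (Dntt) and Pol mu (Polm) add or fill in nucleotides, and ligase IV (Lig4) with its partner XRCC4 (Xrcc4) seals them. TdT is a classical marker of early lymphoid cells and of acute lymphoblastic leukemia.

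The DNA just before the start sites of 6 of these genes is shown because their transcripts differed between the groups or mice past the threshold, and because E proteins, EBF1 and MYC are known to bind words of the kinds marked. The windows hold the 250 bases before the start, 5′ to 3′ on the gene's strand, from the RefSeq promoter table of build GRCm38.p6 (the FPKM tables were made on mm9). Windows were found for 9 of the 10 genes, with 2 start sites for Lig4; Prkdc had none. Lig4 and Xrcc4, which also differed, are not printed because their starts lie 37 and 59 bases from a neighbouring gene, into which the window runs. In Rag1, Rag2, Dntt and Dclre1c the capitals mark E-boxes, CANNTG, the general form of the words bound by E proteins. Not every word of that form is bound by them. In Polm they mark CCCNNGGG, the core of the EBF1 word, and its E-boxes are left unmarked. In Xrcc5 they mark CACGTG, the E-box bound by MYC, which is itself a CANNTG, and its other E-box is left unmarked.
Rag1, chr2:101649533-101649782, minus strand: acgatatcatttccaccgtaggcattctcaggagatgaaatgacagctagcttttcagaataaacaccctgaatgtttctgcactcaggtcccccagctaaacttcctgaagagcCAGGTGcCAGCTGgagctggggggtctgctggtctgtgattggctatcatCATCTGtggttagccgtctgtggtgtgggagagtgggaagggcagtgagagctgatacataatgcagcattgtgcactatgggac
Rag2, chr2:101624462-101624711, plus strand: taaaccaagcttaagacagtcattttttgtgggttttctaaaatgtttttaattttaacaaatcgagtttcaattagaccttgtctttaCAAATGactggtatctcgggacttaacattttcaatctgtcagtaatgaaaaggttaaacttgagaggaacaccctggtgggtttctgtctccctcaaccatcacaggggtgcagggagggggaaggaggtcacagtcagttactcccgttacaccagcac
Dntt, chr19:41029025-41029274, plus strand: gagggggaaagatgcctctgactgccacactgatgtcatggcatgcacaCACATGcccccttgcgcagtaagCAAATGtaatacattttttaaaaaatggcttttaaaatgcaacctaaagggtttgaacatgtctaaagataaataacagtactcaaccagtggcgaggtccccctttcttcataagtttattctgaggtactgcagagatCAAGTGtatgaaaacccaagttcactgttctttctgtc
Polm, chr11:5838017-5838266, minus strand: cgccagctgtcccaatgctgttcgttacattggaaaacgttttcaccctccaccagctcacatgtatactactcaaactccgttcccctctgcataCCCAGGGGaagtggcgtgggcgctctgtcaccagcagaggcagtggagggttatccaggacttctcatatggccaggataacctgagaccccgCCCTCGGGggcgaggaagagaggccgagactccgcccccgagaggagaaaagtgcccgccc
Dclre1c, chr2:3423881-3424130, plus strand: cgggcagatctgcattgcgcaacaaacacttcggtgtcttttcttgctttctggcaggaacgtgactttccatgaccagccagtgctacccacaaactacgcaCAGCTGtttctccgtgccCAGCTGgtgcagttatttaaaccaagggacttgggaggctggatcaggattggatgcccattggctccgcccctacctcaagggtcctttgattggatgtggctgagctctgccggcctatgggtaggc
Xrcc5, chr1:72307171-72307420, plus strand: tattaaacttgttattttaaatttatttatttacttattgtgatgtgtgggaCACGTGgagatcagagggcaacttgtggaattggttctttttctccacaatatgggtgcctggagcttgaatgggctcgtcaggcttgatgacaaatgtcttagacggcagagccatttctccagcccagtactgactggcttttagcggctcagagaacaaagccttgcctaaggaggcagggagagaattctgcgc

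Searched on both strands, CANNTG was in 66.0% of the 27025 promoter windows of all genes, and a match describes letters, not a bound site. It occurred 3 times in each of the Rag1, Dntt and Polm windows, 2 times in those of Xrcc5 and Dclre1c, 1 time in those of Rag2, Xrcc6 and either Lig4 start, and 0 times in that of Xrcc4. The word CCCNNGGG, held by 11.7% of all windows, occurred 2 times in Polm and in none of the other member windows. The word CACGTG, held by 6.05%, occurred 1 time, in Xrcc5. Words of other factors were searched too and are not described here. The windows also differed in base composition. The lymphoid genes Rag1, Rag2 and Dntt had 3, 3 and 2 CpG pairs in 250 bases, against a median of 6 over all windows. Xrcc4 had 26, Xrcc6 had 25 and the start sites of Lig4 had 27 and 28. Xrcc5 had only 5, with 44.8% G and C, unlike Xrcc6 (65.2%), which encodes the other Ku subunit. Polm had 13 CpG pairs and Dclre1c had 8.

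Levels are FPKM (fragments per kilobase of transcript, scaled to the mapped fragments), given for each library and as mean ± SD over 3 B-ALL mice (libraries of a mouse averaged), 3 dHet proB libraries and 2 wt proB libraries. Differences are log2 fold changes of FPKM + 1 from limma with its adjusted p, called at 0.05 and positive where the group named first was higher. Between 9850 and 10595 genes reached FPKM 1 in a library, FPKM summed to 505261 to 638953, and depth relative to the deepest library, read from the steps between low values, was 0.639 to 1. The 9 B-lineage markers, among them Cd79a and Vpreb1, reached FPKM 1 in all 11 libraries. Transcripts of other cells were also present. The summed FPKM of 7 plasmacytoid dendritic cell markers was 470 to 683 in wt proB, 85.7 to 119 in B-ALL and 79.6 to 108 in dHet proB. Siglech, which defines those cells, was at 132 and 77.4 in wt proB, 0.0150 to 1.65 in B-ALL, and listed at 0 in dHet proB. For 10 neutrophil and myeloid markers the sums were 536 to 558, 27.6 to 260 and 13.1 to 42.4, and for 11 stress and immediate early genes 2523 to 3285, 440 to 639 and 362 to 725. Markers of red cells and megakaryocytes summed to 394 and 494 in mouse 713, 103 and 125 in 760, 7.78 and 10.2 in 686, 9.41 and 31.4 in wt proB, and 0.691 to 0.914 in dHet proB. NK cell markers summed to 271 and 333 in mouse 760, 48.8 to 56.3 in the other mice, 37.5 and 42.5 in wt proB and 8.03 to 35.2 in dHet proB. T cell markers were at 7.87 to 20.8 in B-ALL, 11.8 and 17.0 in wt proB and 1.30 to 4.32 in dHet proB, and stromal markers at most at 4.23 anywhere. In bulk RNA, fewer cells of a type and less RNA per cell cannot be told apart. Beside every lower value against wt proB given here, plasmacytoid (7 of 7), myeloid (8 of 10) and stress genes (11 of 11) were also lower in B-ALL, and in dHet proB 6 of 7, 8 of 10 and 11 of 11. Beside the differences of B-ALL from dHet proB, 6 of 7 T cell, 3 of 6 NK cell and 2 of 3 red cell markers tested were higher in B-ALL. Among the mice the limma F test called 8 of 10 myeloid, 6 of 9 B-lineage, 5 of 7 T cell and 5 of 6 NK cell markers tested. It also called 3 of 7 plasmacytoid, 2 of 3 red cell and 1 of 1 stromal markers, and 2 of 11 stress genes. Of all genes tested it called 22.3%. The part of all these in the results was not tested.

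**Figure D1:**
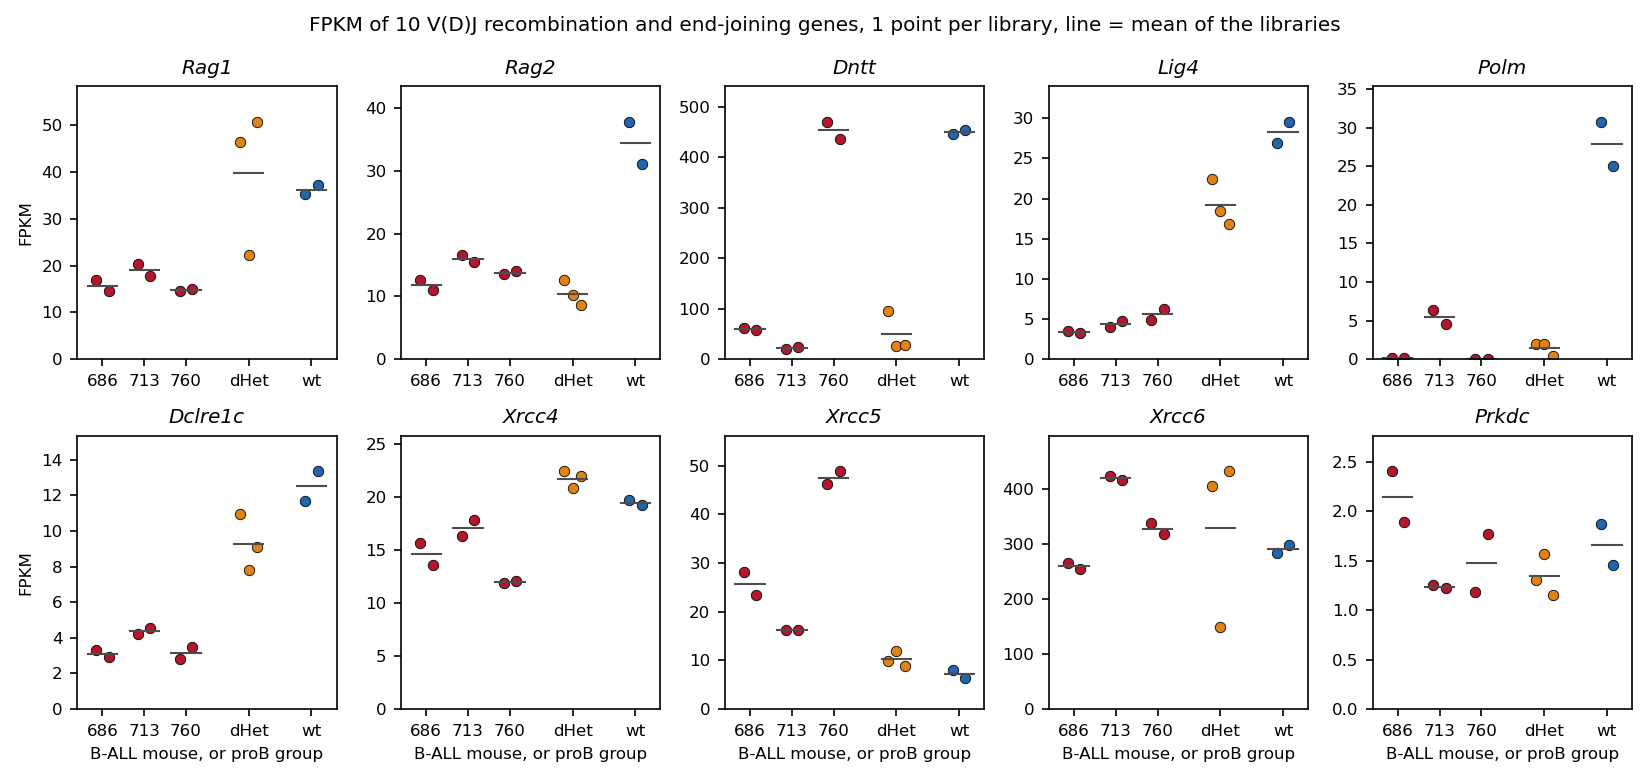
FPKM of each of the 10 genes, with 1 point per library for B-ALL mice 686, 713 and 760, dHet proB and wt proB, and a line at the mean of the libraries shown together; vertical axes start at 0 and differ between panels. Lig4 and Dclre1c lie lower in every B-ALL library than in any proB library, Xrcc5 lies higher, and Dntt in mouse 760 lies at the level of wt proB.

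Rag2 is deleted in the dHet proB cells, so it was read first. It was at 12.6, 10.2 and 8.57 FPKM in dHet proB, at 37.8 and 31.1 in wt proB, and in B-ALL at 12.7 and 11.1 (mouse 686), 16.6 and 15.4 (713) and 13.5 and 14.0 (760). Reads were therefore assigned to Rag2 in all libraries labelled Rag2-/-, at a level overlapping that of the Rag2-intact leukemias, and a value over the whole gene does not tell which part of the transcript they cover. Rag2 overlaps B230118H07Rik (Iftap), a gene for a transport protein of cilia, with which it shares 161 of 3422 words of 50 bases (4.70%), and the use of strand in counting is not given in the sources used here. B230118H07Rik itself was at 4.48 to 6.85 FPKM in dHet proB, 4.11 and 4.75 in wt proB and 1.93 to 4.96 in B-ALL. It did not pass in a group comparison (adjusted p = 0.0756 to 0.671), and it differed among the mice by up to 1.74-fold (F test, adjusted p = 0.0311).

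The recombinase transcripts were lower in leukemia than in normal proB cells, Rag2 past the threshold and Rag1 just short of it. Rag2 was 13.9 ± 2.08 FPKM in B-ALL (n = 3) and 34.5 ± 4.72 in wt proB (n = 2), 2.39-fold lower (log2 -1.26, adjusted p = 0.00678), and every B-ALL library lay below both wt proB libraries. Rag1, the catalytic subunit, was at 16.9 and 14.6 (686), 20.4 and 17.7 (713) and 14.5 and 15.1 FPKM (760), against 35.2 and 37.1 in wt proB. Those libraries do not overlap either, and the log2 difference was -1.09 (adjusted p = 0.0536). In dHet proB Rag1 was at 46.4, 22.1 and 50.7 FPKM: libraries 1 and 3 were above wt proB and library 2 was between B-ALL and wt proB. Rag1 was lower in B-ALL than in dHet proB by 2.21-fold (log2 -1.14, adjusted p = 0.0265), with no overlap of libraries. It did not pass between dHet proB and wt proB (0.05, 95% interval -0.71 to 0.81, adjusted p = 0.959). Rag2 differed there by -1.64 (adjusted p = 0.00266), and by 0.38 (interval -0.05 to 0.82, adjusted p = 0.167) between B-ALL and dHet proB.

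The calls of the recombinase genes rest on few libraries. The Rag2 call against wt proB was lost without wt proB library 1 or 2 and that of dHet proB against wt proB without wt proB library 1 (adjusted p up to 0.0814 and 0.0782). The Rag1 call against dHet proB was lost without mouse 686 or 760, without dHet proB library 1 or 3, and without the filter on low values (up to 0.0956), while Rag1 against wt proB passed in 9 of 26 alternatives, including those without dHet proB library 2 or 3. The ratio of Rag1 to Rag2 FPKM was narrow in cells with intact Rag2, from 1.07 to 1.33 in the B-ALL libraries and 0.931 and 1.19 in wt proB. In dHet proB it was 3.70, 2.18 and 5.92, above every other library. The B-ALL minus dHet proB difference of the log2 ratio was -1.61 (exact permutation test over 3 mice and 3 libraries, two-sided p = 0.1, the smallest possible). Against wt proB it was 0.18 for B-ALL (exact p = 0.6). For dHet proB against wt proB it was 1.78 (exact p = 0.2, the smallest this two-sided test can give with 3 and 2 libraries). These 3 comparisons of groups, with 3 for the ratio of Xrcc6 to Xrcc5 below, make 6 exact tests, none of which could reach 0.05.

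**Figure D2:**
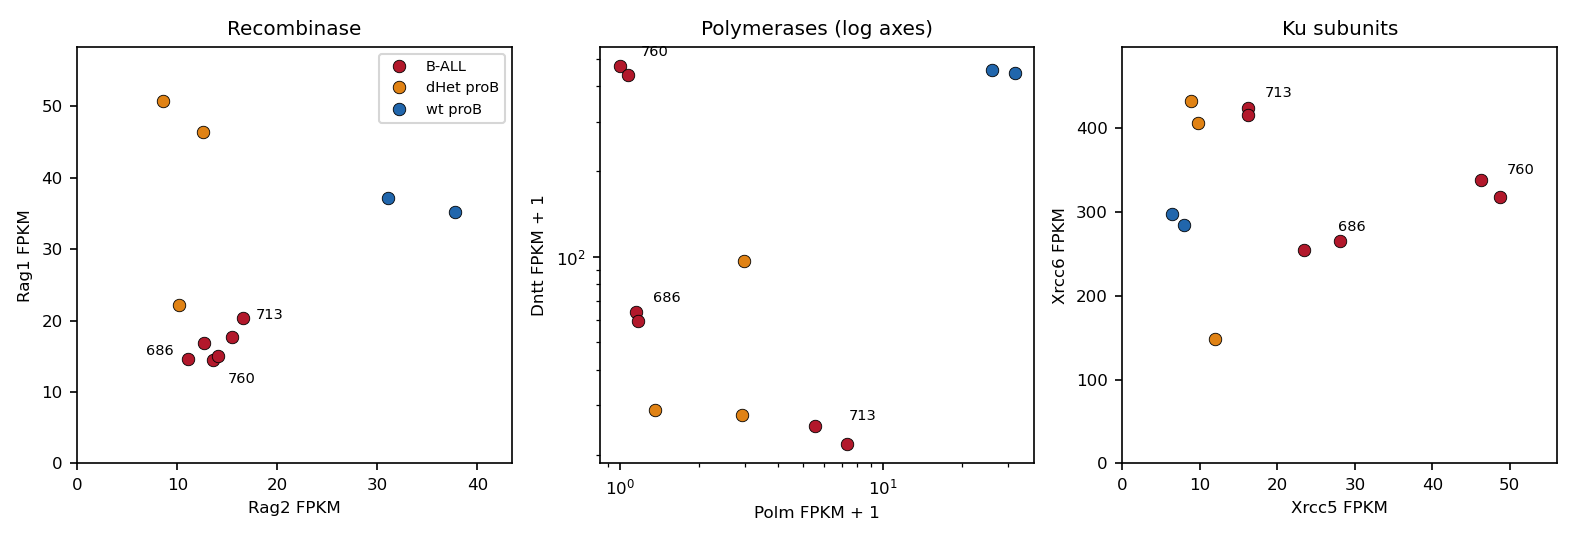
FPKM of Rag1 against Rag2, of Dntt against Polm (both + 1, log axes) and of Xrcc6 against Xrcc5, 1 point per library, B-ALL libraries labelled by mouse. B-ALL libraries sit low on both recombinase axes, dHet proB keeps Rag1 with low Rag2, mouse 760 has high Dntt with Polm near 0, and the Ku subunits do not scale together.

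Terminal transferase separated the leukemias from each other. Dntt was at 62.7 and 58.2 FPKM (mouse 686), 20.8 and 24.3 (713) and 470 and 436 (760). In wt proB it was at 445 and 454, and in dHet proB at 95.5, 26.6 and 27.8. Mouse 760 was therefore at the level of normal proB cells, mouse 686 was within the dHet proB range and mouse 713 just below it, and dHet proB library 1 was above the other 2. The mice differed by up to 19.3-fold (limma F test on log2(FPKM + 1), adjusted p = 0.000662). That test measures against the pooled spread between libraries of a mouse, of dHet proB and of wt proB. It does not measure against a spread between leukemic animals. As a group B-ALL averaged 178 ± 238 FPKM, and neither B-ALL (log2 -2.38, interval -4.93 to 0.18, adjusted p = 0.168) nor dHet proB (-3.41, interval -5.96 to -0.85, adjusted p = 0.109) passed against wt proB, although all dHet proB libraries were below both wt proB libraries. Without mouse 760 B-ALL passed against wt proB, at log2 -3.57, and without mouse 713 or 760 so did dHet proB. The dHet proB difference also passed when only dHet proB and wt proB were fitted (limma, adjusted p = 0.00933). The fit of all groups includes the wide spread of the leukemias.

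Polm, the related polymerase of the same family, was nearly restricted to the normal cells and mouse 713. It was at 30.8 and 25.0 FPKM in wt proB, at 1.97, 1.92 and 0.364 in dHet proB, at 6.32 and 4.52 in mouse 713, and at 0.152 and 0.173 in mouse 686. In mouse 760 it was listed at 0 in library 1 and at 0.0726 in library 2. All B-ALL and dHet proB libraries were below both wt proB libraries, by log2 -3.87 for B-ALL (adjusted p = 0.0120) and -3.66 for dHet proB (adjusted p = 0.0216); the added 1 FPKM shrinks such differences. B-ALL and dHet proB overlapped (-0.21, interval -1.76 to 1.34, adjusted p = 0.846), and the mice differed (adjusted p = 0.000791). The order of the mice was not that of Dntt: mouse 713 was highest for Polm and lowest for Dntt, and mouse 760 the reverse. The B-ALL call was lost without wt proB library 1 or 2 (adjusted p up to 0.108). That of dHet proB was lost without either of these, without dHet proB library 1 or 3, and with a pseudocount of 0.1 (up to 0.212).

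Lig4, the ligase, and Dclre1c, the Artemis nuclease, were low in all 3 leukemias. Lig4 was at 3.53 and 3.25 (686), 4.05 and 4.81 (713) and 4.93 and 6.28 FPKM (760), against 22.5, 18.4 and 16.9 in dHet proB, and in wt proB at 27.0 and 29.6. The highest B-ALL library was below the lowest proB library. The log2 difference was -2.44 ± 0.22 (SE) against wt proB, 5.43-fold (adjusted p = 0.000547), and -1.90 ± 0.19 against dHet proB, 3.74-fold (adjusted p = 0.00116). Dclre1c was at 3.32 and 2.91, 4.22 and 4.57, and 2.83 and 3.49 FPKM in the same mice, in dHet proB at 10.96, 7.80 and 9.09, and in wt proB at 11.7 and 13.3. It was 2.99-fold lower than in wt proB (log2 -1.58, adjusted p = 0.00292) and 2.26-fold lower than in dHet proB (-1.18, adjusted p = 0.00586), again with no overlap. Neither gene differed among the mice past the threshold (adjusted p = 0.104 for Lig4 and 0.233 for Dclre1c) or between dHet proB and wt proB (adjusted p = 0.190 and 0.326), where all dHet proB libraries were nonetheless below both wt proB libraries. Lig4 kept both calls in all 26 other settings run, the highest adjusted p being 0.0267, and Dclre1c lost its call against wt proB without wt proB library 2 (adjusted p = 0.0592). Dclre1c shares 2.32% of its 50-base words with other genes, mainly Suv39h2, which overlaps it, was at 1.29 to 4.97 FPKM in all libraries, and did not pass in any group comparison (adjusted p = 0.572 or more).

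Xrcc4, the partner that stabilises ligase IV, moved less than Lig4. It was at 15.7 and 13.6, 16.4 and 17.9, and 11.9 and 12.1 FPKM in mice 686, 713 and 760, in dHet proB at 22.4, 20.9 and 22.0, and in wt proB at 19.7 and 19.2. Every B-ALL library was below every proB library, by 1.47-fold against dHet proB (log2 -0.56, adjusted p = 0.0347) and 1.33-fold against wt proB (-0.41, adjusted p = 0.138). The first call is weak: 8 of 14 settings that leave out a mouse or library ended it, with adjusted p up to 0.106. It was also lost when only B-ALL and dHet proB were fitted. The 8 were without mouse 686 or 760, without library 1 of mouse 713, and without any single dHet proB or wt proB library.

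The Ku subunits differed in their behaviour. Xrcc5, which encodes Ku80, rose in B-ALL: it was at 28.1 and 23.4 (686), 16.2 and 16.2 (713) and 46.3 and 48.8 FPKM (760), against 9.80, 12.0 and 8.82 in dHet proB, and in wt proB 7.99 and 6.39. All B-ALL libraries were above all proB libraries, by 3.45-fold over wt proB (log2 1.79, adjusted p = 0.0183) and 2.53-fold over dHet proB (1.34, adjusted p = 0.0272). The mice also differed, by up to 2.82-fold (adjusted p = 0.000711), with 760 highest and 713 lowest. Xrcc6, which encodes Ku70, was the most abundant of the 10 transcripts in all libraries of dHet proB and of mice 686 and 713 (Dntt was in mouse 760). It was at 265 and 255, 423 and 415, and 338 and 317 FPKM in the mice, in dHet proB at 405, 148 and 432, and in wt proB at 284 and 298. Its groups overlapped, and it passed in no group comparison (adjusted p = 0.803 against wt proB, 0.809 against dHet proB and 0.983 between these), with intervals as wide as -0.998 to 1.05. The sign of both B-ALL differences turned under TPM and quantile scaling.

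The ratio of Xrcc6 to Xrcc5 was 9.44 and 10.9 in mouse 686, 26.2 and 25.6 in 713, 7.31 and 6.51 in 760, 41.4, 12.4 and 48.9 for dHet proB, and 35.5 and 46.5 for wt proB. All B-ALL libraries had lower ratios than wt proB, and the exact permutation test gave p = 0.2, its smallest two-sided value with 3 mice and 2 libraries. Among the B-ALL ratios fell dHet proB library 2. For B-ALL against dHet proB the exact permutation test gave p = 0.2, above its smallest possible value of 0.1. The exact permutation test gave p = 1 for dHet proB against wt proB. The Xrcc5 calls were lost without mouse 686, against wt proB without wt proB library 1 or 2 (adjusted p up to 0.163), and against dHet proB without dHet proB library 1 or 3 or without the filter (up to 0.0849). Prkdc, the kinase recruited by Ku, had the lowest mean of the 10 genes in each group, at 1.19 to 2.40 FPKM in B-ALL, in dHet proB at 1.16 to 1.57, and in wt proB at 1.45 and 1.87. Its groups overlapped and it passed in no group comparison (-0.04 against wt proB, interval -0.53 to 0.45, adjusted p = 0.917; 0.14 against dHet proB, interval -0.29 to 0.58, adjusted p = 0.610).

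**Figure D3:**
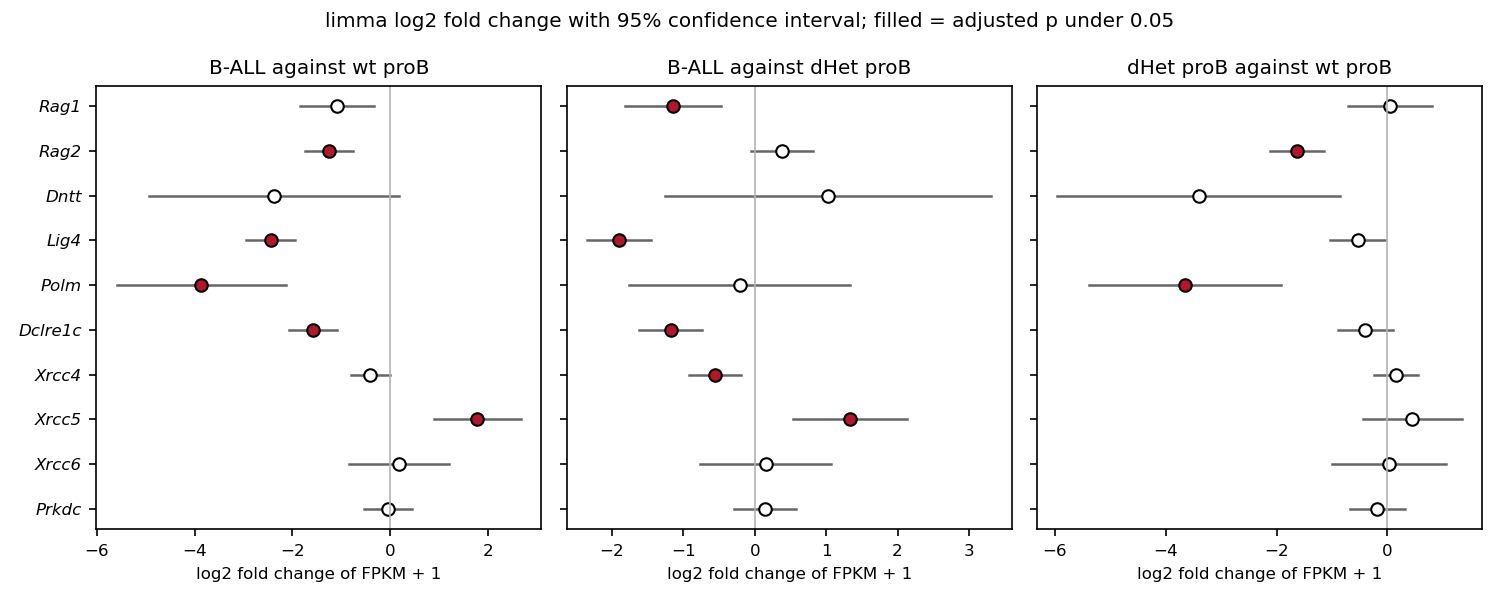
Log2 fold changes of FPKM + 1 with 95% confidence intervals for the 10 genes in the 3 comparisons; filled points passed at adjusted p under 0.05. Lig4, Dclre1c and Xrcc5 are filled in both panels with B-ALL and open in the third, where Rag2 and Polm are filled.

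Against wt proB, 4 of the 10 genes were lower in B-ALL (Rag2, Lig4, Polm and Dclre1c), where 10% of the 11107 genes tested were lower, and 1 was higher (Xrcc5), against 8.15% of all. Their median log2 difference was -1.18, beside -0.02 over all genes tested, and in 7 of 10 the libraries of the groups did not overlap, against 48.2% of all. Against dHet proB, 4 were lower (Rag1, Lig4, Dclre1c and Xrcc4), against 11% of all, and 1 higher (Xrcc5), against 14.5%. The median was -0.03, beside 0.04 over all genes, and 5 did not overlap, against 34.9%. In dHet proB against wt proB 2 were lower (Rag2 and Polm), against 6.5%, and 0 higher by limma (0 also at unadjusted p under 0.05), against 2.18%. The median was -0.29, beside -0.04, and 7 did not overlap, against 43%. By the F test 3 of 10 differed among the leukemic mice (Dntt, Polm and Xrcc5), beside 22.3% of the 11293 genes tested. The comparisons share samples, so their counts are not independent of each other. The shares of genes called over the whole table depend on scaling: with FPKM rescaled to a common sum (TPM), 23.8% rather than 44.9% of all calls against wt proB were rises, and the median of all genes moved from -0.02 to -0.22. Against dHet proB the share of rises was 57.0%, 38.7% with TPM and 46.4% with quantile scaling, and between dHet proB and wt proB 25.1%, and 43.7% with quantile scaling.

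The relative order of the transcripts by FPKM changed with the state of the cells. In both wt proB libraries Dntt ranked highest, Xrcc6 next, and Prkdc lowest, with Xrcc5 in place 9 of 10. In B-ALL Xrcc6 and Dntt held the top places in every library, Xrcc5 was in place 3 in mice 686 and 760 and in place 5 or 6 in mouse 713, and Polm was in place 10 in those mice and 7 or 9 in mouse 713. Lig4, at 28.3 ± 1.85 FPKM, did not stand apart from Polm (27.9 ± 4.07) in wt proB, nor Rag1 (36.1 ± 1.38) from Rag2 (34.5 ± 4.72), since their libraries overlap. In B-ALL the group means of the neighbours Rag1, Xrcc4 and Rag2 (16.5 ± 2.25, 14.6 ± 2.55 and 13.9 ± 2.08) were within their spread, as were those of Lig4 and Dclre1c (4.46 ± 1.09 and 3.55 ± 0.73). Within every B-ALL library, however, Rag1 was above Rag2 (ratio 1.07 to 1.33). In dHet proB Dntt (49.9 ± 39.4) overlapped Rag1 (39.8 ± 15.4), Xrcc4 (21.8 ± 0.78) overlapped Lig4 (19.3 ± 2.90), and Rag2, Xrcc5 and Dclre1c (10.4 ± 2.0, 10.2 ± 1.60 and 9.28 ± 1.59) overlapped each other, as did Polm (1.42 ± 0.91) and Prkdc (1.34 ± 0.21).

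Other factors of DNA end repair were read beside the shares of all genes tested that were called. Those were 10% lower and 8.15% higher for B-ALL against wt proB, and 11% and 14.5% against dHet proB. For dHet proB against wt proB they were 6.5% and 2.18%. A list of 8 genes is too short to set 1 call apart from such shares. Of 8 further end-joining factors, 1 was lower in B-ALL and 1 in dHet proB when each was compared with wt proB, and 0 were higher by limma (1 and 0 at unadjusted p under 0.05). The list's medians were -0.29 and -0.20 there, and 0 of 8 were called by limma between B-ALL and dHet proB (1 at unadjusted p under 0.05). Poll, the third polymerase of the family, was at 18.6 ± 1.33 FPKM in B-ALL and 11.1 ± 1.31 in wt proB, and its difference of 0.70 did not pass (adjusted p = 0.0571). None of 12 genes of break sensing, such as Atm, 7 of alternative end joining, such as Polq and Parp1, or 11 of homologous recombination, such as Brca1 and Blm, was called by limma in the 3 comparisons between groups. Among the leukemic mice the F test called 22.3% of all genes tested. It called 2 of the 12 (Nbn and Rad50, adjusted p = 0.0257 and 0.0456), 1 of the 7 (Parp1, 2.30-fold, adjusted p = 0.000396) and 0 of the 11. At unadjusted p under 0.05, 2, 3 and 2 of these passed for B-ALL against wt proB, 1, 2 and 2 against dHet proB, and 0 in each list for dHet proB against wt proB. In these lists, 0.06, -0.26 and -0.16 were the median differences of B-ALL from wt proB. Of 8 cofactors and turnover factors of the recombinase, among them Hmgb1 and Hmgb2, 1 was called between groups: Vprbp, a ubiquitin ligase subunit known to associate with RAG1, higher in B-ALL than in dHet proB (0.60, adjusted p = 0.0489).

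Many regulators of Rag and Dntt transcription were lower in leukemia. Of 22 tested of 23, compared with wt proB, 10 were lower in B-ALL and 0 higher by limma (0 higher also at unadjusted p under 0.05; median -0.82). Of all genes tested, 10% were lower there and 8.15% higher. Compared with dHet proB 13 were lower and 1 higher (-1.09), beside 11% and 14.5% of all genes. Between dHet proB and wt proB 0 were lower and 1 higher (4 and 3 at unadjusted p; median 0.09), beside 6.5% and 2.18% of all genes. Lef1, which binds enhancers in early lymphocytes, was at 45.0 ± 33.5 FPKM in B-ALL, 481 ± 87.5 in dHet proB and 361 ± 84.3 in wt proB (log2 -3.62 and -3.20, adjusted p = 0.00228 and 0.00523). Foxo1, an activator of Rag transcription, was at 12.0 ± 5.63, 41.2 ± 5.32 and 34.8 ± 0.78 FPKM (-1.77 against dHet proB and -1.54 against wt proB, adjusted p = 0.00522 and 0.0143); it was picked out after its values were seen. Gfi1b, a repressor of Rag transcription, was lower too, by -2.68 against wt proB (adjusted p = 0.00353), so the genes of this list that fell include activators and repressors. The E protein gene Tcf12 was lower than in dHet proB by -2.34 (adjusted p = 0.00303). Ebf1, of which B-ALL and dHet proB lack an allele, was at 176 ± 19.3 FPKM in B-ALL, 316 ± 46.9 in dHet proB and 420 ± 173 in wt proB. It was lower in B-ALL than in wt proB (-1.19, adjusted p = 0.0203) and dHet proB (-0.83, adjusted p = 0.0374). Pax5 was lower than in dHet proB (-0.95, adjusted p = 0.0214) and not past the threshold against wt proB (-0.78, adjusted p = 0.0679). Among rises, Bcl11a was higher in B-ALL than in dHet proB (1.25, adjusted p = 0.0109) and Sox4 in dHet proB than in wt proB (1.10, adjusted p = 0.00997). By the F test 5 of the 22 differed among the mice (Ets1, Gfi1b, Ikzf3, Lef1 and Tcf3), which is near the share over all genes tested (22.3%).

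Neighbouring genes were read beside the members, with the RefSeq order of genes in GRCm38.p6. Abhd13, a hydrolase gene whose start lies next to that of Lig4 on the opposite strand, was at 1.29 to 7.87 FPKM in B-ALL, in dHet proB at 9.61 to 13.3, and in wt proB at 10.4 and 11.6. It was lower in B-ALL than in either (log2 -1.13 against dHet proB, adjusted p = 0.0127; -1.06 against wt proB, adjusted p = 0.0283), as Lig4 was, and library 1 of mouse 686 was the lowest. Traf6, a signalling adaptor gene on the far side of Rag1, was lower in B-ALL than in dHet proB (-0.92, adjusted p = 0.00811), like Rag1. Blnk, a B cell adaptor beside Dntt, was lower in B-ALL than in dHet proB and wt proB (-1.47 and -1.20, adjusted p = 0.0112 and 0.0407), but did not follow Dntt among the mice: it was at 132 and 124 FPKM in 686, 171 and 166 in 713 and 194 and 198 in 760. Pgam2, a muscle form of a glycolytic enzyme next to Polm, was like Polm lower in B-ALL and dHet proB than in wt proB (-2.12 and -1.50, adjusted p = 0.00244 and 0.0135). Desi1 overlaps Xrcc6, which shares 6.29% of its 50-base words with it, and like Xrcc6 it was lowest in dHet proB library 2 (64.2 FPKM against 123 and 142). Tmem167, head to head with Xrcc4, and Mcm4, a replication helicase subunit beside Prkdc, passed in no group comparison (Tmem167 adjusted p = 0.662 or more, Mcm4 0.655 or more). Nhp2l1, a spliceosome subunit gene on the far side of Xrcc6, was higher in B-ALL than in dHet proB (0.76, adjusted p = 0.0179; 0.63 and 0.0572 against wt proB), where Xrcc6 did not pass. Lrrc4c, a neuronal adhesion gene and the nearest on the far side of Rag2 at 3993040 bases, was at 7.45 and 8.25 FPKM in mouse 686, 11.2 and 12.0 in 713 and 0.107 and 0.0406 in 760, and listed at 0 in all proB libraries. It did not pass between groups (adjusted p = 0.109 against wt proB and 0.0679 against dHet proB) and differed among the mice (adjusted p = 3.22e-07). Hspa14 beside Dclre1c and Mzt2 beside Prkdc did not pass between groups (adjusted p = 0.364 or more and 0.092 or more). The remaining nearest genes were at no more than 0.240 FPKM in any library.

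**Figure D4:**
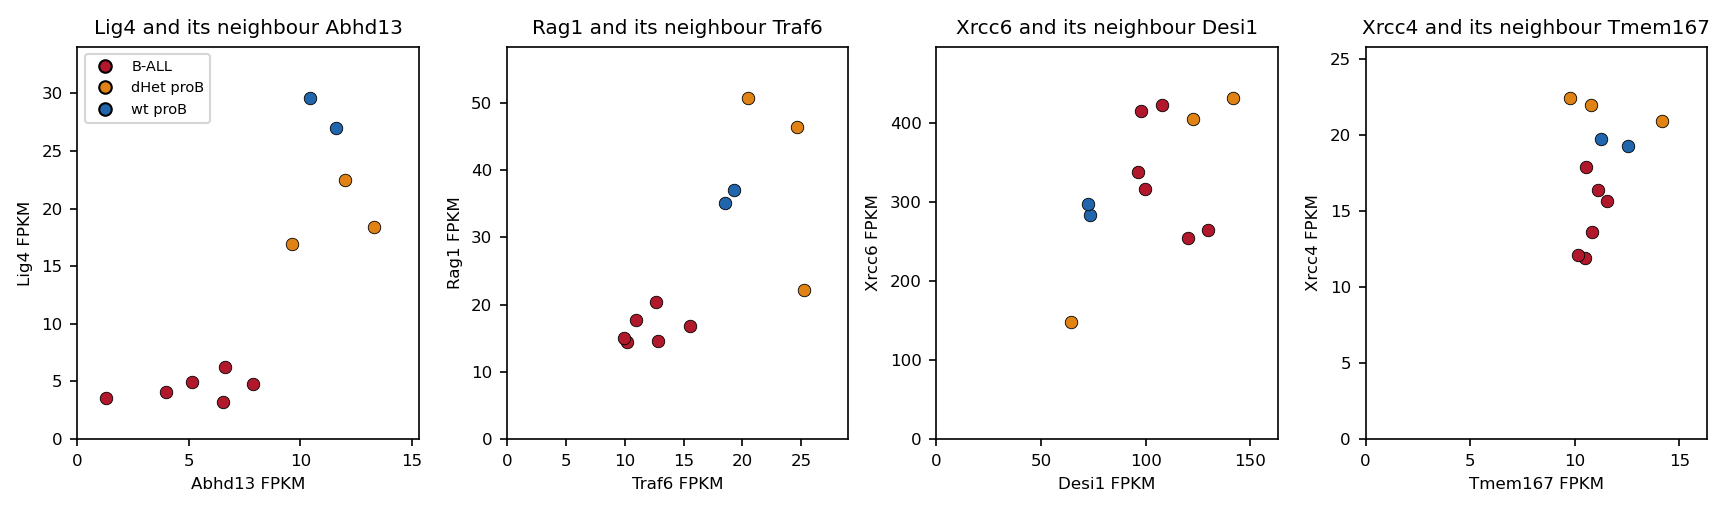
FPKM of 4 members (vertical) against a neighbouring gene (horizontal), 1 point per library, axes from 0. B-ALL libraries are low on both axes for Lig4 and Abhd13 and for Rag1 and Traf6, whereas Tmem167 stays between 9.77 and 14.2 FPKM while Xrcc4 is lower in B-ALL, and dHet proB library 2 is low for both Xrcc6 and Desi1.

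Library 2 of dHet proB was far below the other dHet proB libraries for Rag1 and Xrcc6. Its 16 cell cycle genes summed to 3623 FPKM, against 2236 and 1221 in dHet proB libraries 1 and 3, 2033 to 2690 in B-ALL and 2217 to 2365 in wt proB; the part of this in the values was not tested. Without that library Rag1 was lower in B-ALL than in dHet proB by log2 -1.51 and Xrcc6 by -0.34, where with it Xrcc6 was higher by 0.15; neither Xrcc6 value passed.

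By the Pearson correlation of log2(FPKM + 1) over the 8 mice and libraries, with 8423 genes as candidates, each member's closest match was taken as a description, since the units share their groups. Lig4 was most like Neil1, a glycosylase of base excision repair (r = 0.994), and next Mturn (0.990). Neil1 was at 4.97 to 10.8 FPKM in B-ALL, in dHet proB at 29.6 to 46.4, and in wt proB at 62.8 and 66.6. Dclre1c was most like Trp53inp2 (0.996) and Mmrn1 (0.993), Rag1 like Bsdc1 (0.980) and Lzts2 (0.975), and Rag2 like Hvcn1, a proton channel (0.987), and Tlr12 (0.982). Dntt was most like Pkib, a protein kinase A inhibitor (0.954; next Nrgn, 0.944), which was at 6.93 and 7.54 FPKM in mouse 760, 0.662 to 2.60 in the other mice, 6.89 and 7.59 in wt proB and 1.69 to 1.83 in dHet proB. Polm was most like Siglecg, an inhibitory receptor of B cells (0.987), and Cxx1b (0.978). Xrcc5 was most like the serine protease Prss16 (0.987; next Grcc10, 0.986), at 10.7 and 13.4 FPKM in mouse 760, 2.78 to 5.98 in the other mice and 0.188 to 1.12 in proB cells. Xrcc4 was most like Il10rb (0.985) and Cep170 (0.983), and Xrcc6 like Hmha1 (0.979) and Parp10 (0.966). The best matches of Prkdc, Brd3 and BC030867, reached 0.921 and 0.887. Among the members themselves, Lig4 and Dclre1c had r = 0.971, Dclre1c and Xrcc5 -0.935, Rag2 and Polm 0.906, and Rag1 and Rag2 0.148.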

How the data were processed

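RNA of 11 mouse libraries was measured by sequencing. Per the submitters' processing notes, bcl2fastq (0.3.1 and 2.20.0.422 are named), STAR 2.5.3a and Cufflinks 2.2.1, with Cuffdiff and Cuffnorm 2.2.1, were used on mm9; annotation and scaling were not given in the sources used here. FPKM for each gene symbol and library were deposited by the authors, with no counts, so absolute depth is unknown and no counting error is given. Values were transformed to log2(FPKM + 1), from the deposited FPKM; this understates changes of low genes. The log2 values of a B-ALL mouse's libraries were averaged, giving 8 units. A gene was tested if 2 units or more reached FPKM 1, with limma 3.58.1 (R 4.3.3, statmod 1.5.0), all groups in 1 fit with a mean-variance trend, two-sided, with Benjamini-Hochberg adjustment over all genes. An F test (limma, 11 libraries in 5 groups) compared the mice. The fit was tested on simulated data. Promoter windows came from the RefSeq table of GRCm38.p6 and shared 50-base words from GENCODE M21 transcripts.

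The members and gene lists were chosen with earlier results of these data known. Besides all members, the text names up to 2 genes per direction of each list with the largest change among those called, Ebf1 and Pax5, the nearest genes at each locus, and the 2 genes most alike each member (genes with mean FPKM of 5 or more in some group, predicted models left out). Other genes named are examples of what a list holds, and a gene that the rule names is not reported here. Alternatives were other pseudocounts and filters, TPM and quantile scaling, fits of the compared groups only, without the trend, with mouse as a random effect, with 1 library per mouse, with the library number as a replicate block, and leaving out each mouse or library.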

Additional observations from a re-analysis of the deposited data

How the results depend on the processing

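The groups are small, and the wt proB calls rest on 2 libraries. Leaving out a mouse or library in turn, the members higher in B-ALL than wt proB numbered 0 to 1, lower 1 to 5; higher than dHet proB 0 to 1, lower 2 to 4; and lower in dHet proB than wt proB 0 to 3. Without the filter 0 members were higher in B-ALL than dHet proB, with a pseudocount of 0.1 only 1 was lower in dHet proB than wt proB, and without dHet proB library 2 the members differing among the mice numbered 5. Deviations of same-numbered libraries correlated at 0.64 for mice 686 and 713, and at 0.135 and 0.207 for mouse 760 with these. In pairs with dHet proB or wt proB they correlated at -0.134 to 0.114. The numbers thus clearly pair only the libraries of mice 686 and 713, and for mouse 760 the values are too near those of the groups to tell. With the library number as a replicate block the members differing among the mice were again 3. In the group comparisons the block was fitted on the 11 single libraries, with each mouse as a group of its own. The libraries of a mouse were thus no longer averaged. Both choices changed together, and dHet proB library 3, alone in its number, no longer bore on the differences. The spread between mice did not enter the error of this fit, which took libraries of a mouse as replicates. Its p-values and calls therefore do not hold for differences between animals. In that fit 7 members were lower in B-ALL than wt proB (Rag1, Dntt and Xrcc4 gained the call) and 1 (Xrcc5) higher in dHet proB than wt proB; Polm of B-ALL against dHet proB passed (-0.58, adjusted p = 0.00843), as did Dntt of dHet proB against wt proB (-3.13, adjusted p = 0.0018), and Rag1 and Xrcc6 of dHet proB against wt proB turned to -0.16 and -0.24. All other changes of sign were in differences that passed neither as reported nor where the sign turned. Xrcc6 turned to -0.023 (TPM) and -0.068 (quantile) for B-ALL against wt proB, and to -0.027 and -0.088 against dHet proB; Prkdc turned to 0.27 (quantile) for B-ALL and to 0.21 for dHet proB against wt proB. Leaving 1 out, B-ALL against wt proB ranged from -0.18 to 0.075 for Prkdc. B-ALL against dHet proB ranged from -0.16 to 1.97 for Dntt, -1.06 to 0.25 for Polm and -0.34 to 0.42 for Xrcc6. In dHet proB against wt proB the range was -0.16 to 0.42 for Rag1 and -0.24 to 0.52 for Xrcc6. The cause of these changes was not tested. Counts of all genes called rose by over 1.5 times in the fit with the block, to 2710 higher and 2829 lower for B-ALL against wt proB (905 and 1112 otherwise), and fell without a wt proB library, to as few as 61 and 132.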
